A study of Mus musculus with 4 samples.

Results

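The Toll-like receptor family was measured as transcripts in mouse bone marrow-derived macrophages. Its members were taken by name, as the table rows with the symbols Tlr1, Tlr2, Tlr3, Tlr4, Tlr6, Tlr7, Tlr8, Tlr9 and Tlr13, and all 9 were found among 11111 genes. There were 2 libraries of macrophages given morpholinos against Regnase-1 (Reg1-MOs) and 2 of macrophages given a control morpholino (Ctrl MO). All 4 came from C57BL/6 bone marrow cultured for 7 days. The morpholinos, antisense oligomers that bind RNA, were given at 2 µM with Endoporter for 24 hours, and every culture then received lipopolysaccharide (LPS) at 10 ng/ml for 4 hours. There was thus no unstimulated group, and no level below can be read as a response to LPS. Separate animals or cultures are not named in the labels, so each p-value rests on spread among these 4 libraries, largely as shared across genes. That spread may be technical. The labels call the targeting morpholinos MO1 and MO2 and the table uses the same words for its Reg1-MOs columns, so whether a library received 1 of them or both is not settled. The transcript of the targeted gene, Zc3h12a, was higher with Reg1-MOs, so the contrast below is not one of a depleted Regnase-1 transcript.

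Toll-like receptors are membrane proteins with an ectodomain of leucine-rich repeats that binds microbial molecules and a cytoplasmic TIR domain that recruits adaptors. Those at the cell surface bind lipids and proteins of microbial walls, and those in endosomes bind nucleic acids. Macrophages use both kinds. Of the surface receptors, TLR4 binds LPS with its partner MD-2, while TLR2 binds bacterial lipopeptides as a heterodimer with TLR1 or TLR6. In endosomes, TLR3 binds double-stranded RNA and signals through TRIF, whereas TLR7 binds single-stranded RNA, TLR9 binds CpG DNA and mouse TLR13 binds bacterial ribosomal RNA, all of which signal through MyD88. TLR8 is a single-stranded RNA receptor in humans, and its ligands in the mouse are less settled.

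With Reg1-MOs, 4 of the 9 receptor transcripts fell and 1 rose. Tlr1, Tlr3, Tlr6 and Tlr7 were lower by 1.23- to 1.48-fold, and Tlr13 was 1.37-fold higher. The LPS receptor gene Tlr4 and the lipopeptide receptor gene Tlr2 were both higher in each Reg1-MOs library than in either control and did not pass, as Tlr8 and Tlr9, which were lower, did not. The groups therefore did not overlap for any of the 9 members, with 6 lower and 3 higher. Across all genes, 58.9% had groups that did not overlap, 12.2% passed the test in either direction, 6.22% rose and 6.03% fell. The test was limma's moderated test, fitted to all genes at their deposited log2 values, with Benjamini-Hochberg adjusted p under 0.05 as the threshold. The median log2 difference, Reg1-MOs minus Ctrl MO, was -0.37 over the members and -0.03 over all genes, and the median size was 0.44 over the members and 0.17 over all genes. With 1 library left out, no member's difference changed sign. Tlr1 then ranged from -0.613 to -0.483, Tlr3 from -0.697 to -0.435 and Tlr6 from -0.334 to -0.256. Tlr7 ranged from -0.501 to -0.238 and Tlr13 from 0.372 to 0.54. Each fit with a library left out had 1 library in a group, so its calls cannot be compared with those of the main fit. Only the differences from these fits are given. With quantile normalization or equal totals there were 6 falls and 2 rises, and 13.9% or 14.1% of all genes passed. Without a variance trend no member passed, and 3.39% of all genes did.

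**Figure D1:**
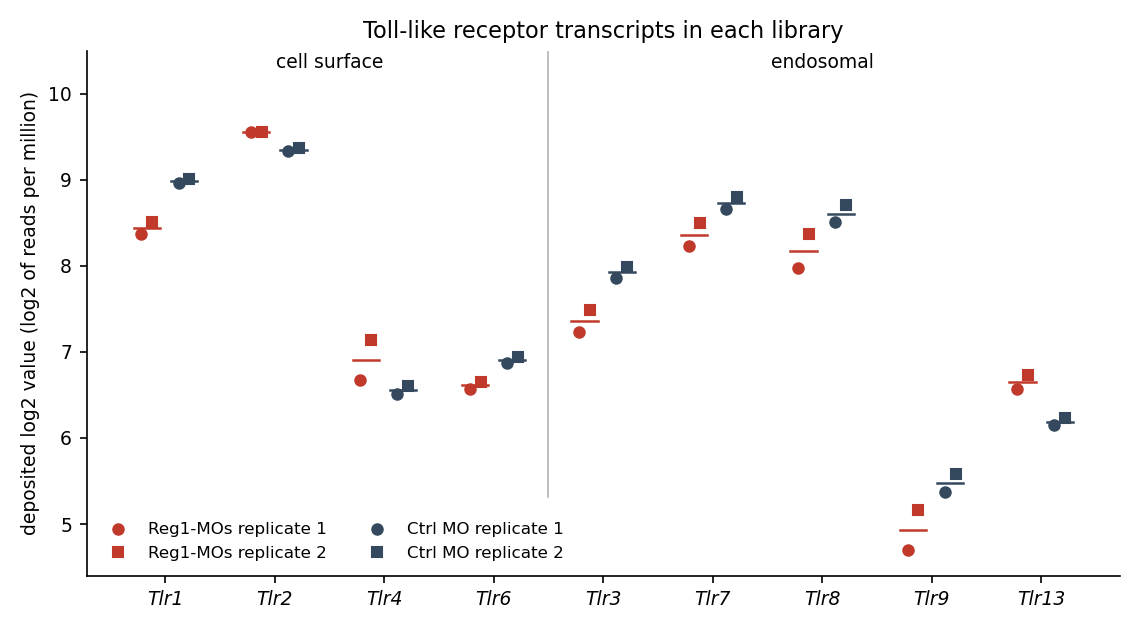
Deposited log2 values (log2 of RPM, vertical axis) of the 9 receptor transcripts in each of the 4 libraries, with Reg1-MOs in red left of Ctrl MO in dark blue; bars are group means. Both Reg1-MOs libraries lie below both controls for 6 members and above them for Tlr2, Tlr4 and Tlr13.

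**Figure D2:**
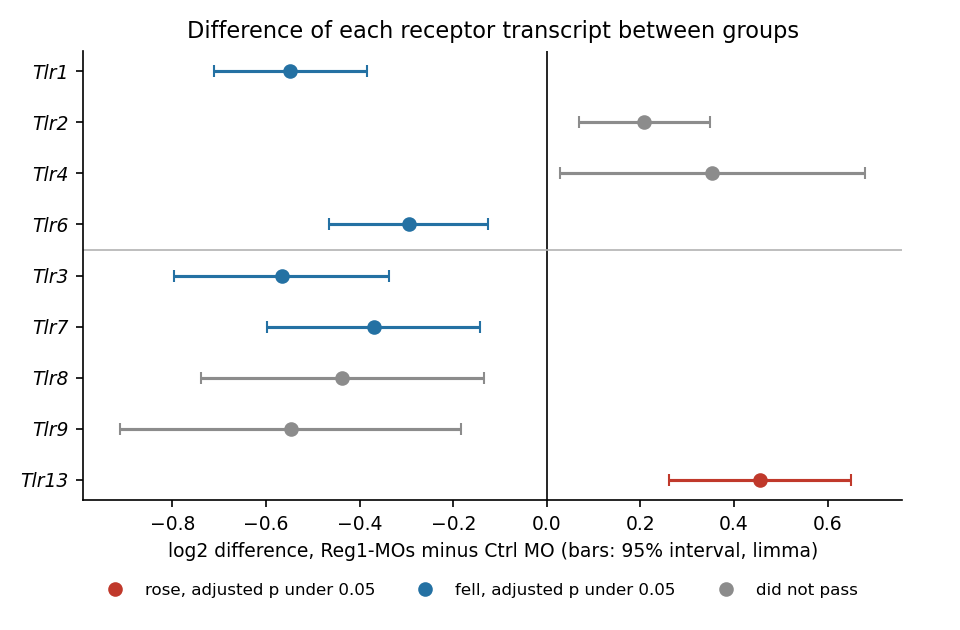
Log2 difference of each receptor transcript, Reg1-MOs minus Ctrl MO (horizontal axis), with its 95% interval from limma; n = 2 libraries per group. Tlr1, Tlr6, Tlr3 and Tlr7 (blue) fell, Tlr13 (red) rose and the 4 in grey did not pass.

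Each library held 23369753 to 25213695 reads in the table. Zc3h12a, the Regnase-1 gene on chromosome 4 at 125118423 to 125127840 of GRCm38, had 7799 and 6753 reads with Reg1-MOs, against 3407 and 3572 reads with Ctrl MO. The targeted transcript was thus 2.14-fold higher with Reg1-MOs, not lower (limma adjusted p = 4.01e-04). Of 10 macrophage markers, all in the table, the macrophage growth factor receptor gene Csf1r stood at a log2 difference of 0.01 and the macrophage surface gene Adgre1 at -0.18, and neither passed, while the lysosomal Cd68 rose by 0.34, and the integrin gene Itgam fell by 0.67 and the lysozyme gene Lyz2 by 0.27. Markers of cells that also carry these receptors were few: 2 of 6 for B cells, at a summed 8.33 to 10.8 RPM (reads scaled by the library sizes that the deposited values imply) with Reg1-MOs and 10.9 to 11.4 with Ctrl MO, 3 of 7 for plasmacytoid dendritic cells and none of 7 for conventional dendritic cells were among the genes analysed here. The plasmacytoid list was carried by the broadly expressed Tcf4 and summed to 358 to 398 RPM with Reg1-MOs, against 485 to 509 with Ctrl MO. Stromal cell markers, 6 of 8 in the table, summed to 76.0 and 85.7 RPM with Reg1-MOs, against 181 and 188 with Ctrl MO. All 6 fell, beside 6.03% of all genes. Neutrophil markers (7 of 8) summed to 331 to 432 with Reg1-MOs and 410 to 465 with Ctrl MO, and none passed. Those of T or NK cells (2 of 8) summed to 23.8 to 28.5 with Reg1-MOs and 34.5 to 34.7 with Ctrl MO, and 1 of them fell. The part of other cells in the receptor differences was not tested, and fewer cells of a type and less RNA per cell cannot be told apart in such samples.

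Promoter sequence is shown for the receptors whose transcripts passed, where the RefSeq table has an entry, and for Tlr2, whose partners fell while it did not. Each line gives the 250 bases before the RefSeq start site nearest to the annotated gene start, on the gene's own strand, 5′ to 3′, on GRCm38.p6. Capitals mark matches to any of 7 short motifs searched on both strands, namely GAAANNGAA for interferon regulatory factors, GAGGAA for PU.1 and other ETS factors, GGGNNTTCC for NF-kappaB, TGANTCA for AP-1, TTGCNNAA for C/EBP factors, TGACNNNGC for NRF2 and CACGTG for MITF and TFE factors. The motifs were chosen with the expression values known. The Tlr3 start in RefSeq lies 700 bases inside the gene as GENCODE draws it, and those of the others shown lie within 159 bases of the GENCODE start.

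Tlr1 promoter, chr5:64933559-64933808, minus strand: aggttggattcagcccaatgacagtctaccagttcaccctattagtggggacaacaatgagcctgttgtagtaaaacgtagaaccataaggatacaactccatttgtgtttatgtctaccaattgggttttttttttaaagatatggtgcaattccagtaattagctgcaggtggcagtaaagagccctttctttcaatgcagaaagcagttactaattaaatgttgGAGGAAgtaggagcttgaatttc
Tlr6 promoter, chr5:64960049-64960298, minus strand: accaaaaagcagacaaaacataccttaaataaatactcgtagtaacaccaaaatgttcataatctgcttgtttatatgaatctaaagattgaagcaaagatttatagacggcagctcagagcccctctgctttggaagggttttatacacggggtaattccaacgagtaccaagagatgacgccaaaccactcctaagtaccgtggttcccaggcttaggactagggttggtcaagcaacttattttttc
Tlr3 promoter, chr8:45410381-45410630, minus strand: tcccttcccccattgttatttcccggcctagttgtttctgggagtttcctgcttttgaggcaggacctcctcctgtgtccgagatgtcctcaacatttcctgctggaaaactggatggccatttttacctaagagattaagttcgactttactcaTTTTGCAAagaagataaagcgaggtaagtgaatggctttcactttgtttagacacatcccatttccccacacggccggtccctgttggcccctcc
Tlr13 promoter, chrX:106143025-106143274, plus strand: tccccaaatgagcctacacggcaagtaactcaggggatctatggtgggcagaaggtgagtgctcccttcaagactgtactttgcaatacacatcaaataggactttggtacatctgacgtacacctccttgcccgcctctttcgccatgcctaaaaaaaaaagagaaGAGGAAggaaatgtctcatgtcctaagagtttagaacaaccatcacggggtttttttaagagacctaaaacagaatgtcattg
Tlr2 promoter, chr3:83841609-83841858, minus strand: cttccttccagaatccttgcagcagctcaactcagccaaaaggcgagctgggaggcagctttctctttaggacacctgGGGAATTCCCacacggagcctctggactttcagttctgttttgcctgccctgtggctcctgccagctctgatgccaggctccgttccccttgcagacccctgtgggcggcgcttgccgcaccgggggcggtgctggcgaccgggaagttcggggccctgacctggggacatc

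The 3 windows shown for genes that fell shared no motif. Tlr1 held 1 match, GAGGAA at 23 to 18 bases before the start, Tlr3 held 1, the C/EBP-type TTTTGCAA at 95 to 88, and Tlr6 held none. Tlr13, which rose, held GAGGAA at 83 to 78 bases before its start. The Tlr2 window was the one with an NF-kappaB match, the palindrome-like GGGAATTCC that is read on both strands as 2 overlapping matches between 172 and 163 bases before the start, and at 62.8% G and C it was the richest in G and C of the 7 member windows available. The other member windows were those of Tlr8 and Tlr9, with 3 matches each; Tlr4 and Tlr7 are named only. Of 32851 promoter windows of this length, GAGGAA was found in 23.3%, TTGCNNAA in 9.56%, GGGNNTTCC in 4.98% and CACGTG in 6.02%, and the members with them numbered 4, 2, 1 and 0 of 7. TGACNNNGC was found in 10.2% of all windows, GAAANNGAA in 7.13% and TGANTCA in 6.75%, and each in 1 member window. A match is a run of letters and no evidence of binding.

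Among the cell surface receptors, Tlr1 changed the most. Tlr1 (ENSMUSG00000044827; chromosome 5, 64924679 to 64933563, minus strand, GRCm38) had 6431 and 6454 reads with Reg1-MOs, against 9534 and 9831 reads with Ctrl MO. Its deposited log2 value was 8.44 ± 0.09 with Reg1-MOs and 8.99 ± 0.03 with Ctrl MO (SD, n = 2 each), a fall of 0.55 (SE 0.07, limma adjusted p = 0.00371). It is the receptor subunit that, with TLR2, binds triacylated lipopeptides. With any 1 library left out the difference was -0.48 to -0.61, and the call ended without a variance trend (limma adjusted p = 0.0595). Tlr6 (ENSMUSG00000051498; chromosome 5, 64952031 to 64960097, minus strand), the partner for diacylated lipopeptides, had 1845 and 1786 reads with Reg1-MOs, against 2231 and 2349 reads with Ctrl MO. It fell by 0.30 (SE 0.07, limma adjusted p = 0.0399), the smallest of the 5 changes that passed. That call ended without Reg1-MOs replicate 1 (-0.26, adjusted p = 0.108) and with either control left out, at -0.33 (0.174) for Ctrl MO replicate 1 and -0.26 (0.379) for Ctrl MO replicate 2.

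Tlr2 (ENSMUSG00000027995; chromosome 3, 83836272 to 83841767, minus strand), the shared partner of both, had 14637 and 13381 reads with Reg1-MOs, against 12338 and 12570 reads with Ctrl MO. On the log2 scale it stood at 9.56 ± 0.003 with Reg1-MOs and 9.35 ± 0.02 with Ctrl MO (SD, n = 2 each), a difference of 0.21 (SE 0.06, limma adjusted p = 0.063). It passed with equal totals (adjusted p = 0.0449) and with quantile normalization (0.0295), so its call depended on how libraries were scaled. The level of Tlr1 per kilobase, as a ratio to that of Tlr2 in the same library, was 0.396 and 0.434 with Reg1-MOs, against 0.696 and 0.704 with Ctrl MO. The ratio of Tlr6 to Tlr2 was 0.102 and 0.108 with Reg1-MOs, against 0.146 and 0.151 with Ctrl MO. Both ratios were thus lower in each Reg1-MOs library than in either control, and the ratios are given as a description, with no test.

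Tlr4 (ENSMUSG00000039005; chromosome 4, 66827584 to 66930284, plus strand), the receptor for the LPS that all cultures received, had 1978 and 2504 reads with Reg1-MOs, against 1733 and 1847 reads with Ctrl MO. Its difference was 0.35 (SE 0.14; 95% interval 0.03 to 0.68; limma adjusted p = 0.141). Most of the spread lay between the Reg1-MOs libraries, with log2 values of 6.67 and 7.14 there and of 6.51 and 6.60 with Ctrl MO. Without Reg1-MOs replicate 1 the difference was 0.59, and without Reg1-MOs replicate 2 it was 0.12.

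Among the endosomal receptors, Tlr3 had the lowest adjusted p of those that fell. Tlr3 (ENSMUSG00000031639; chromosome 8, 45395665 to 45411080, minus strand), the double-stranded RNA receptor, had 2909 and 3198 reads with Reg1-MOs, against 4438 and 4853 reads with Ctrl MO. It was 7.36 ± 0.18 on the log2 scale with Reg1-MOs and 7.93 ± 0.09 with Ctrl MO (SD, n = 2 each), a fall of 0.57 (SE 0.10, limma adjusted p = 0.0118). Without Reg1-MOs replicate 1 the fall was 0.43, the smallest with any 1 library left out. Its call ended without a variance trend (limma adjusted p = 0.0959). Ifih1, encoding the cytosolic double-stranded RNA sensor MDA5, fell by 0.46 in the same fit (adjusted p = 0.0115; 0.0564 when Reg1-MOs replicate 1 and 0.0556 when Ctrl MO replicate 2 was left out).

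Tlr7 and Tlr8 lie side by side on chromosome X, 40600 bp apart and both on the minus strand, and were lower to a like extent. Tlr7 (ENSMUSG00000044583; 167304929 to 167330558) had 5813 and 6400 reads with Reg1-MOs, against 7740 and 8471 reads with Ctrl MO. It fell by 0.37 (SE 0.10, limma adjusted p = 0.0492), just inside the threshold. The call ended with an offset of 8 reads (limma adjusted p = 0.0504) and with a minimum mean of 50 reads (0.0539). Without Reg1-MOs replicate 1 the difference was -0.24, and without Ctrl MO replicate 2 it was -0.30. Tlr8 (ENSMUSG00000040522; 167242696 to 167264329) had 4858 and 5871 reads with Reg1-MOs, against 6959 and 7934 reads with Ctrl MO. Its difference was -0.44 (SE 0.13, limma adjusted p = 0.0675), just outside the threshold, and ranged from -0.64 to -0.24 with 1 library left out. The ratio of Tlr7 to Tlr8 per kilobase was 1.05 and 0.958 with Reg1-MOs, against 0.977 and 0.938 with Ctrl MO, so these ratios overlapped between groups.

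Tlr9 (ENSMUSG00000045322; chromosome 9, 106222598 to 106226883, plus strand), the CpG DNA receptor, was the least abundant member, with 501 and 637 reads with Reg1-MOs, against 787 and 914 reads with Ctrl MO. Its difference of -0.55 was as large as that of Tlr1, with a wider spread (SE 0.16; 95% interval -0.91 to -0.18; limma adjusted p = 0.0609). With 1 library left out the difference ranged from -0.78, without Reg1-MOs replicate 2, to -0.31, without Reg1-MOs replicate 1.

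Tlr13 (ENSMUSG00000033777; chromosome X, 106143204 to 106160493, plus strand), the receptor for bacterial ribosomal RNA, went the other way from the other endosomal receptors. It had 1833 and 1888 reads with Reg1-MOs, against 1360 and 1427 reads with Ctrl MO, and was 6.65 ± 0.12 with Reg1-MOs and 6.19 ± 0.05 with Ctrl MO on the log2 scale (SD, n = 2 each). The rise was 0.46 (SE 0.08, limma adjusted p = 0.0144), and 0.37 to 0.54 with 1 library left out. Its call ended without a variance trend (limma adjusted p = 0.0903). The ratio of Tlr13 to Tlr3 per kilobase was 0.762 and 0.714 with Reg1-MOs, against 0.371 and 0.356 with Ctrl MO. That to Tlr7 was 0.299 and 0.28 with Reg1-MOs, against 0.167 and 0.16 with Ctrl MO.

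**Figure D3:**
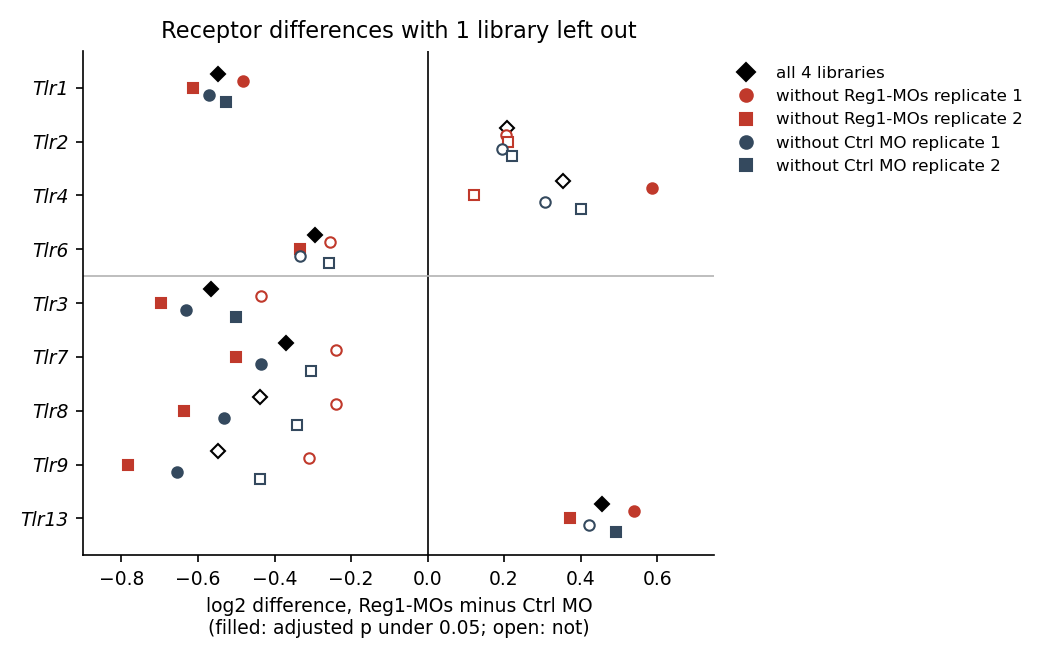
Log2 difference of each receptor transcript (horizontal axis), Reg1-MOs minus Ctrl MO, with all 4 libraries (black) and with each library left out. Filled symbols passed an adjusted p of 0.05 (limma). A fit with a library left out has 1 library in a group, so its fill cannot be compared with that of the black symbols. All values keep their sign, and Tlr4 ranges from 0.12 to 0.59 by which Reg1-MOs library is left out.

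The libraries differed within groups in a way that ran through the family. All 9 members had a higher deposited value in Ctrl MO replicate 2 than in Ctrl MO replicate 1, by 0.03 to 0.22 on the log2 scale, and 8 of 9 had a higher value in Reg1-MOs replicate 2 than in Reg1-MOs replicate 1, by up to 0.47. The second library was higher in both groups at once for 8 of the 9 members and for 35.3% of all genes. For the members that were lower with Reg1-MOs, Reg1-MOs replicate 2 was the library nearer to the controls, and for Tlr4 and Tlr13 it was the one farther from them. Among the 3879 genes with a total exon length in the range of the members, 3014 to 5556 bases, the second library was higher in both groups for 28.9% and the median log2 difference between groups was -0.01.

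Levels of different receptors were compared as RPM per kilobase of annotated exon, at the authors' scale per library. On that scale Tlr2 led, at 250 ± 0.53 with Reg1-MOs and 217 ± 2.99 with Ctrl MO (SD, n = 2 each). Tlr1 followed at 104 ± 6.63 with Reg1-MOs and 152 ± 3.38 with Ctrl MO. Tlr7 and Tlr8, at 80.9 ± 10.4 and 81.0 ± 15.7 with Reg1-MOs and at 104 ± 6.70 and 109 ± 10.1 with Ctrl MO, did not differ from each other beyond their spread. Tlr3 stood at 31.7 ± 4.06 with Reg1-MOs and 46.8 ± 2.98 with Ctrl MO. In Reg1-MOs libraries it was followed by Tlr6 at 26.3 ± 1.01, Tlr13 at 23.3 ± 1.92 and Tlr4 at 21.9 ± 4.94. With Ctrl MO, Tlr6 stood at 32.2 ± 1.19, Tlr13 at 17.0 ± 0.59 and Tlr4 at 16.9 ± 0.77. Tlr13 and Tlr4 overlapped in both groups, as Tlr7 and Tlr8 did, and no other neighbours in the order had overlapping libraries. Tlr9 was last in both groups, at 8.87 ± 2.03 with Reg1-MOs and 12.8 ± 1.36 with Ctrl MO. With the longest annotated transcript as the length, a choice made after seeing the data, Tlr4 passed Tlr6 with Reg1-MOs (29.8 against 26.6) and Tlr13 with Ctrl MO (23.0 against 18.0), so the order of the lower members rests on the length used.

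The summed level of the 5 endosomal receptors was 202 and 250 with Reg1-MOs, against 274 and 305 with Ctrl MO. That of the 4 surface receptors was 394 and 411 with Reg1-MOs, against 412 and 424 with Ctrl MO. The groups overlapped for neither sum, though the surface sums came as near as 411 and 412. Of all genes, 58.9% had groups that did not overlap. On the log2 scale the endosomal sum differed by -0.37 and the surface sum by -0.05. The SD between replicates was 0.173 for the endosomal sum and 0.037 for the surface sum. When Reg1-MOs replicate 1 was left out they stood at -0.21 and -0.02, and when Reg1-MOs replicate 2 was left out at -0.52 and -0.09; with Ctrl MO replicate 2 left out the surface sum stood at -0.03. The surface sum held opposite movements, since it differed by 0.17 without Tlr1 and by -0.41 without Tlr2. Tlr2 made up 42.1% and 37.8% of the summed family level with Reg1-MOs, against 31.3% and 30.0% with Ctrl MO, and the endosomal receptors together made up 33.9% and 37.8% with Reg1-MOs, against 40.0% and 41.9% with Ctrl MO.

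**Figure D4:**
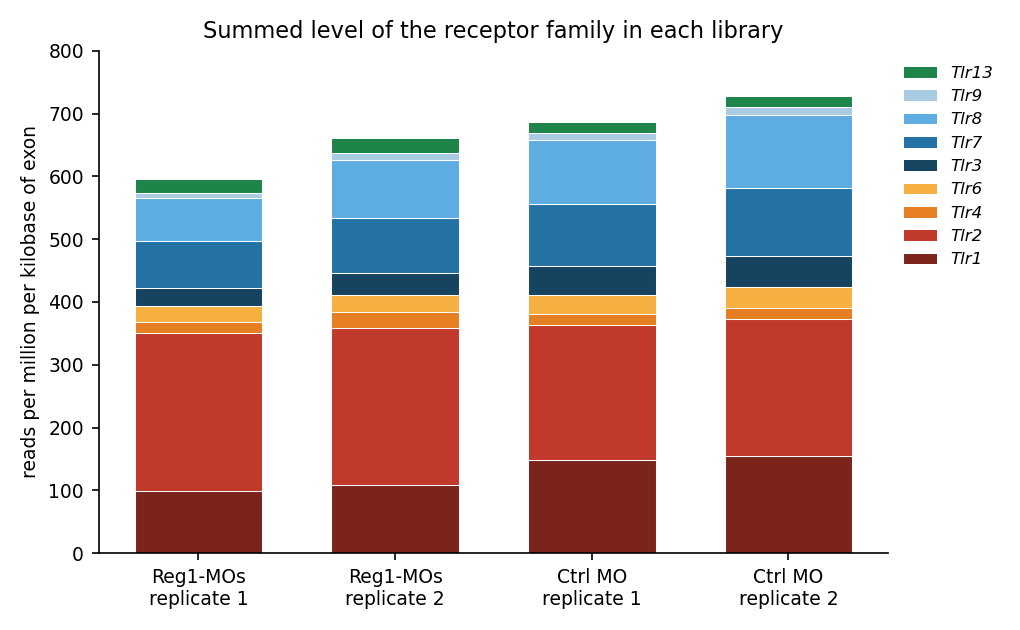
Summed level of the 9 receptor transcripts in each library (vertical axis, RPM per kilobase of exon), stacked by receptor. Tlr2 takes 37.8% to 42.1% of the column in the Reg1-MOs libraries and 30.0% to 31.3% in the Ctrl MO libraries.

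The genes around the receptors were read from the same fit. Within 100000 bp of Tlr1 the table held 3 genes, and all 3 fell with it, beside 6.03% of all genes. They were Tlr6, the zinc finger gene Klf3 (-0.60, limma adjusted p = 0.0377) and Fam114a1 (-0.42, adjusted p = 0.015). All 3 calls ended without a variance trend (limma adjusted p = 0.135 for Tlr6, 0.16 for Klf3 and 0.0769 for Fam114a1). Without Reg1-MOs replicate 1 the Klf3 difference was -0.37, and without Ctrl MO replicate 2 that of Fam114a1 was -0.38. Around Tlr7 and Tlr8, Prps2 stood at -0.13 (adjusted p = 0.46) and Tmsb4x at -0.14 (adjusted p = 0.244), and neither passed. Of the 3 genes near Tlr13, the glycolytic gene Pgk1 rose by 0.52 (adjusted p = 0.00516, and 0.0595 without a variance trend), and Atp7a (0.04) and Taf9b (0.21) did not pass. None of the neighbours of Tlr2, Tlr3 and Tlr9 passed, and Tlr4 had no other gene of the table in that window.

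Tlr1 and Tlr6 are close copies, and reads in their shared stretches may have been split or dropped by counting that is not stated. Of 3307 different 75-base windows in the annotated Tlr1 transcripts, 340 also occur in Tlr6 transcripts, and these are 340 of the 3677 windows of Tlr6. The other members shared no such window with each other. Of 5561 windows of Tlr3, 238 also lie in Gm45542, an antisense gene on the other strand whose exons overlap it, and reads of these 2 genes cannot be told apart if strand was ignored in counting. Tlr1 also shared a few windows with genes outside the family, 351 in all with Tlr6 included. The ratio of Tlr1 to Tlr6 per kilobase was 3.88 and 4.03 with Reg1-MOs, against 4.76 and 4.66 with Ctrl MO.

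Of 13 genes of chaperones and trafficking, which fold and move the receptors, 1 fell and 1 rose, beside 6.03% and 6.22% of all genes, with a list median of -0.06 beside -0.03 over all genes. Hsp90b1, encoding the endoplasmic reticulum chaperone gp96 that folds most of the family, had 7241 and 6838 reads with Reg1-MOs, against 10053 and 10311 with Ctrl MO. It fell by 0.49 (SE 0.06, limma adjusted p = 0.00347), a call that ended without a variance trend (0.0585). With 1 library left out the difference was -0.515 to -0.472. Rab7b, a small GTPase that sends TLR4 and TLR9 to lysosomes, rose by 0.41 (adjusted p = 0.0348, and 0.0823 without a variance trend). With 1 library left out its rise was 0.37 to 0.44. Unc93b1, which escorts the endosomal receptors out of the endoplasmic reticulum, stood at -0.10 (adjusted p = 0.327), Tmed7, a cargo receptor for TLR4, at -0.26 (adjusted p = 0.088), and Slc15a4, needed for endosomal signalling, at -0.06 (adjusted p = 0.607).

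Some endosomal cathepsins cleave the ectodomains of nucleic acid-sensing receptors, and PLD3 is an exonuclease that limits their ligands. Of 11 genes of endosomal proteases and nucleases 5 rose and none fell, beside 6.22% and 6.03% of all genes, with a list median of 0.28 beside -0.03 over all genes. Ctss had 96323 and 90025 reads with Reg1-MOs, against 69011 and 66724 with Ctrl MO. It rose by 0.50 (SE 0.06, limma adjusted p = 0.00367), and by 0.47 to 0.52 with 1 library left out. Ctsk rose by 0.93, Ctsl by 0.43, Ctsz by 0.38 and Pld3 by 0.28 (adjusted p = 0.00805, 0.0105, 0.019 and 0.048). Without Reg1-MOs replicate 1 the rises of Ctsk, Ctsl, Ctsz and Pld3 were 0.77, 0.35, 0.30 and 0.21. Without a variance trend none of the 5 genes passed (limma adjusted p = 0.0584 for Ctss). Ctsb stood at 0.23 (adjusted p = 0.0611) and the asparagine endopeptidase gene Lgmn at -0.14 (adjusted p = 0.171).

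Of 16 genes of adaptors and proximal kinases, which act next after the receptors, 1 rose and 2 fell, and 12.2% of all genes passed in either direction. The shared adaptor gene Myd88 stood at 0.02 (limma adjusted p = 0.865), the TRIF gene Ticam1 at -0.22 (0.128) and Irak4 at 0.25 (0.103). Traf3, a ubiquitin ligase of the TRIF branch, rose by 0.59 (adjusted p = 0.0101), while Ticam2, the TLR4 adaptor TRAM, fell by 0.38 (0.0187) and Pik3ap1, which links the receptors to PI3K, fell by 0.35 (0.0442). The calls of Traf3, Ticam2 and Pik3ap1 ended without a variance trend (limma adjusted p = 0.0685, 0.0957 and 0.171), and that of Pik3ap1 also with quantile normalization (0.0606). Without Reg1-MOs replicate 1 the differences of Ticam2 and Pik3ap1 were -0.32 and -0.23. Of 6 surface co-receptors, Ly96, encoding the TLR4 partner MD-2, fell by 0.44 (adjusted p = 0.0152, and 0.069 without a variance trend) and Cd14 stood at 0.16 (0.146). List medians were -0.03 for the adaptors and kinases and -0.07 for the co-receptors.

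**Figure D5:**
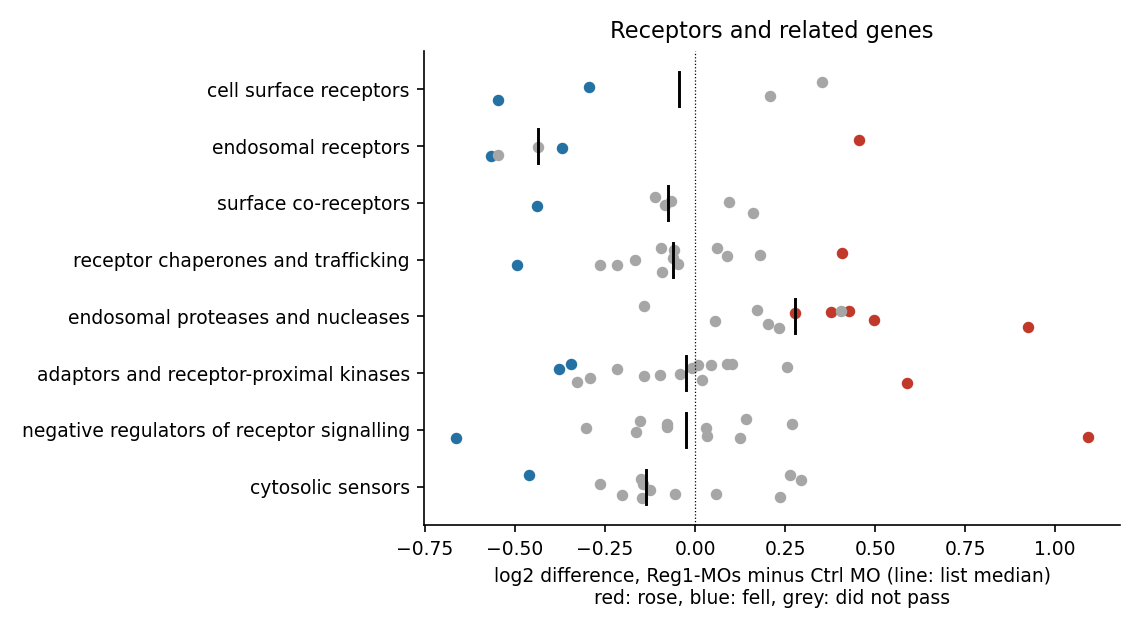
Log2 differences, Reg1-MOs minus Ctrl MO (horizontal axis), of the receptors and of genes in 6 related lists; red points rose, blue points fell, grey points did not pass, and the line is each list's median. The median lies at 0.28 for endosomal proteases and nucleases and at -0.44 for the endosomal receptors.

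Genes whose values over the 4 libraries were most like those of each called member were found by the root mean square difference of centred log2 values, over 9331 genes that averaged 50 reads or more and carried a symbol other than that of a predicted gene or a clone. For Tlr1 these were the receptor kinase Axl (0.007), Serp1 (0.012) and Pecam1 (0.014). For Tlr6 they were Snn, Chd4 and Ttf2 (0.008 to 0.012), for Tlr3 P2ry13 and Rprd1a (0.025 and 0.033), for Tlr7 Golga3, Fam3b and Atp8b2 (0.002 to 0.018), and for Tlr13 Zswim4, P2ry14 and Tprkb (0.019 to 0.023). With 4 libraries these are descriptions of likeness and carry no test.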

How the data were processed

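Per the labels' protocols, poly(A) RNA was sequenced on a NextSeq instrument after directional NEBNext library preparation. Cutadapt, FastQC, HISAT2 1.6.3 and mm10 are named in the submitters' processing notes; how reads were counted, with which strand setting, filtered and normalized is not given in the sources used here. As deposited by the authors, the table holds log2 values for 11111 genes. Raising 2 to these values gave whole reads plus 0.5 times 1 constant per library, within 0.01 of a whole number for 100% of genes, so reads were recovered and are quoted. Library sizes implied by the scale were 1.27 to 1.32 times smaller than the table totals.

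Differences are Reg1-MOs minus Ctrl MO from limma 3.58.1 (R 4.3.3) with a mean-variance trend and group as the only term, two-sided, fitted to all genes with Benjamini-Hochberg adjustment. Residual degrees of freedom were 2, with 5.47 from the prior. The fit was tested on simulated data. Alternatives were quantile normalization, equal totals, an offset of 8 reads, a minimum mean of 50 reads, no variance trend, voom weights, a replicate block and leaving out each library. Leaving out a library left 1 in its group, so those fits are described by their differences. Positions and exon lengths are from GENCODE M21 on GRCm38, where 11088 of 11090 Ensembl identifiers were found. Promoters are from RefSeq (GRCm38.p6). Depth per library was 23369753 to 25213695 reads, and each member had a mean of at least 709 reads. The members, gene lists and tests were chosen with earlier results of these data known. All 9 members are named, with the 2 genes of smallest p in each list, all genes past the threshold in the lists of trafficking and adaptors, the 3 most like genes of each called member (1 of which is not reported here), and Zc3h12a; other genes, the neighbours among them, were chosen after their values were seen. Sarm1, Sigirr and Il1rl1 were listed and not analysed here. Older symbols of 2 listed genes were matched through RefSeq synonyms.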

Additional observations from a re-analysis of the deposited data

How the results depend on the processing

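Of 319 single-gene differences recomputed over 11 alternatives for 29 genes, none changed sign. The members' count of 1 rise and 4 falls became 2 rises and 6 falls with quantile normalization and with equal totals, where Tlr2, Tlr8 and Tlr9 joined, 1 rise and 3 falls with an offset of 8 reads or a minimum mean of 50 reads, where Tlr7 left, and 0 rises and 0 falls without a variance trend. Leaving out 1 library left 1 group with a single library, so no counts of calls are given for those fits. All genes gave 691 rises and 670 falls, 195 and 182 without a variance trend, and 249 to 530 rises and 258 to 860 falls with 1 library left out. With a replicate block, which no label supports as a pairing, there were 1532 rises and 1891 falls, and 3 members rose and 6 fell. Deviations of same-numbered libraries from their group means correlated at 0.314 over 9476 genes. The summed level of the surface receptors differed by 0.167 without Tlr1 and by -0.405 without Tlr2, against -0.05 with all 4, and by -0.09 to -0.02 with 1 library left out; that of the endosomal receptors differed by -0.52 to -0.21. List counts ran from 0 to 8 rises for endosomal proteases and nucleases (5 in the report), 0 to 2 rises and 0 to 4 falls for adaptors and kinases (1 and 2), 0 to 1 rises and 0 to 3 falls for trafficking (1 and 1), and 0 to 1 of each for co-receptors (0 and 1). For negative regulators they ran from 0 to 2 rises beside 1 fall (1 and 1), and for cytosolic sensors from 0 to 3 rises and 0 to 6 falls (0 and 1). The causes were not tested. With 2 libraries per group, the spread behind each call rests largely on that shared across genes.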

Other observations

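Of 12 cytosolic sensors and their adaptors, the double-stranded RNA sensor gene Ifih1 fell and none rose, with a list median of -0.14; of all genes 12.2% passed in either direction. Ifih1 had 45776 and 47751 reads with Reg1-MOs, against 64574 and 67619 reads with Ctrl MO. Members of the list that did not pass lay on both sides of 0. The DNA sensor gene Cgas stood at 0.26 (limma adjusted p = 0.0759) and Sting1, encoding its adaptor, at 0.29 (adjusted p = 0.0631, and 0.0448 with equal totals). On the other side, Mavs stood at -0.26 (adjusted p = 0.118) and Ddx58 at -0.20 (0.102). The DNA sensor gene Aim2 and Zbp1, a sensor of Z-form nucleic acids, stood at -0.15 each. Nod2, a sensor of bacterial muramyl dipeptide, stood at 0.24 (adjusted p = 0.102) and Nod1 at -0.13 (adjusted p = 0.307).

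Among 12 negative regulators of receptor signalling, Tnip3, an A20-binding inhibitor of NF-kappaB, had 15935 and 14703 reads with Reg1-MOs, against 24344 and 25498 reads with Ctrl MO. It fell by 0.66 (limma adjusted p = 0.00152), and its call held under each alternative that kept all 4 libraries. With 1 library left out the difference was -0.70 to -0.63. Pdlim2, encoding a ubiquitin ligase for the NF-kappaB subunit p65, had 206 and 198 reads with Reg1-MOs, against 82 and 115 reads with Ctrl MO. Its rise was 1.09 (adjusted p = 0.00885, and 0.065 without a variance trend). Irak3, the decoy kinase IRAK-M, stood at 0.03 (adjusted p = 0.79), Tnfaip3, encoding A20, at -0.08 (adjusted p = 0.575) and Tollip at 0.03 (adjusted p = 0.835). The list median was -0.02.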
